A study of Mus musculus with 6 samples.

Results

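The genes described are 8 transcription factor genes of the T lineage: Tcf7, Gata3, Bcl11b, Lef1, Tox, Runx3, Ets1 and Zbtb7b. They were listed by name, and 7 of the 8 had a value and were tested, among 13308 genes tested and 22180 genes with a value. Tcf7 was not analysed here, because 0 probe sets carried its name, alone or with other genes. Each of the others was read from the probe set that carried only its symbol and had the highest mean over the 6 arrays: 17366644 for Gata3, 17283871 for Bcl11b, 17402662 for Lef1, 17423107 for Tox, 17419840 for Runx3, 17515819 for Ets1 and 17407069 for Zbtb7b.

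The cells were labelled Ly6D- common lymphoid progenitors, a name for early marrow cells whose T, B and natural killer cell fates are all still possible. The sort, from adult mice 6 to 8 weeks old, took lineage-low, cKit+, Sca+, CD127+, Thy1.2- and Ly6D- cells. The mutant mice were OcnCre+;iDTR+/- and the control mice OcnCre-;iDTR+/-. Both carried iDTR, a Cre-dependent receptor for diphtheria toxin, and both received the toxin daily for 4 weeks. Cre was driven by the promoter of osteocalcin, a gene of bone-forming cells, so the toxin was aimed at those cells in mutants and not at the progenitors themselves. RNA of 3 mutant and 3 control samples was amplified and hybridised to 1 Affymetrix array each. The labels do not say whether a sample was 1 mouse or a pool, so the p-values cover the spread between these samples alone, which may be technical, and the precision is limited by having 3 arrays in each group.

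Before T cell genes are switched on in the thymus, a progenitor receives a Notch signal that turns on Tcf7, whose product TCF-1 opens the T cell programme. Gata3 and then Bcl11b follow, and Bcl11b closes off the other fates. Lef1 encodes a close relative of TCF-1, Ets1 and Tox act in developing T and innate lymphoid cells, and Zbtb7b (ThPOK) and Runx3 oppose each other when thymocytes choose between the CD4 and CD8 fates. Common lymphoid progenitors in the marrow stand before most of these steps.

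These factors are known to act on each other's genes, so the promoters were searched for the core letters that such factors read. The RefSeq promoter table (build GRCm38.p6) held 12 windows for 6 of the 8 genes, and the 250 bases before each start were searched on both strands. The motifs were ACCACA for RUNX factors, CTTTGA for TCF and LEF factors, AGATAA for GATA factors, CGGAAG for ETS factors and GTGGGAA for the Notch partner RBPJ. Runx3 and Zbtb7b each had 1 window with the RUNX letters, as did 14% of all 32851 windows. Bcl11b and Lef1 each had 1 window with the TCF/LEF letters, as did 13.8% of all windows. The RBPJ letters stood in 1 Zbtb7b window (5.42% of all) and the ETS letters in 1 Tcf7 window (13.6%). The GATA letters stood in 0 of the 12 windows (9.99% of all), which says only that these letters are not there. The windows below are the only one of Bcl11b and 1 of the 2 of Zbtb7b, whose groups did not overlap on the arrays, and 1 of the 2 of Runx3. Those of Zbtb7b and Runx3 are the ones with the RUNX letters, and the Zbtb7b window with the RBPJ letters is not shown; capitals mark the motif matches, of which none overlapped another. A match is a description and not a binding site.
Bcl11b, chr12:108003415-108003664, minus strand: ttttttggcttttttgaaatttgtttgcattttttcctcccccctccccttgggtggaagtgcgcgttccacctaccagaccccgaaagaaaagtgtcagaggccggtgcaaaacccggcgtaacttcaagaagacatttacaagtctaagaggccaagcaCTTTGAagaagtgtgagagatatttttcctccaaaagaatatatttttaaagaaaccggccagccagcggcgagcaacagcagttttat
Zbtb7b, chr3:89387672-89387921, minus strand: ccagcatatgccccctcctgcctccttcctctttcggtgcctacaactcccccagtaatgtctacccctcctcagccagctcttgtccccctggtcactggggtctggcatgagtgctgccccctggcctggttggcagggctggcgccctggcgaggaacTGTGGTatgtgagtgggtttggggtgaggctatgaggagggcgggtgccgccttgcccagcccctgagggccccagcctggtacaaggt
Runx3, chr4:135120395-135120644, plus strand: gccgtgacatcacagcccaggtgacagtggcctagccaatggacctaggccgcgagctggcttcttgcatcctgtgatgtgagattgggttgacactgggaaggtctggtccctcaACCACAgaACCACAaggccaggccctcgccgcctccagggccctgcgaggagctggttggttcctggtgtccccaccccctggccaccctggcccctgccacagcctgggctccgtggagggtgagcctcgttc

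Values are log2 probe set intensities, so a difference of 1 is a doubling, and they were made with RMA, which leaves no detection call. The lowest 40% of genes by mean, under 4.84, were not tested. Mutant replicate 2 stood apart: its correlation with any of the others was 0.936 to 0.954, and among those 5 arrays it was 0.973 to 0.989 (across probe sets, which are not independent). Of all tested genes, 46.2% departed from the control mean by over 0.3 on that array, against 26.2% on mutant replicate 3 and 12% on mutant replicate 1. On the control arrays, which set that mean, the shares were 2.25% to 5.88%. Of the sex-linked genes, Eif2s3y was at 4.77 in mutant replicate 3 and 4.88 in control replicate 1, and at 7.31 to 7.85 on the other 4 arrays. Xist was at 8.03, 5.57 and 10.72 in the mutant replicates, against 11.04, 8.07 and 6.57 in the control replicates. It was highest on the 2 arrays with low Eif2s3y, but mutant replicate 1 and control replicate 2 had both high Eif2s3y and Xist above 8, so Xist does not divide the arrays into the same clear sets.

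For none of the 7 T lineage factor genes did the mutant and control arrays differ at an adjusted p under 0.05. Their differences ran from −0.24 for Ets1 to 0.23 for Bcl11b, and the mutant mean was above the control mean for 5 genes and below it for 2, against 42.5% above and 57.5% below over all 13308 tested genes. The difference was under 0.1 in size for 2 of the 7, Gata3 and Tox, and under 0.3 for all 7, against 34.7% and 81% of all tested genes. The median difference was 0.09 for the 7 genes and −0.04 over all tested genes. In limma 0 of the 7 passed with adjustment, and 0 had an unadjusted p under 0.05. Over all genes these counts were 0 (0%) and 1068 (8.03%, with 2.01% higher and 6.02% lower in mutants). In a linear model without limma's variance moderation 2 of the 7, Bcl11b and Zbtb7b, had an unadjusted p under 0.05, where 6.61% of all tested genes did, and 0 passed with adjustment. The same 2 genes were those whose mutant and control values did not overlap. Over all tested genes the values did not overlap for 5.4% with mutants above and for 9.99% with mutants below.

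**Figure D1:**
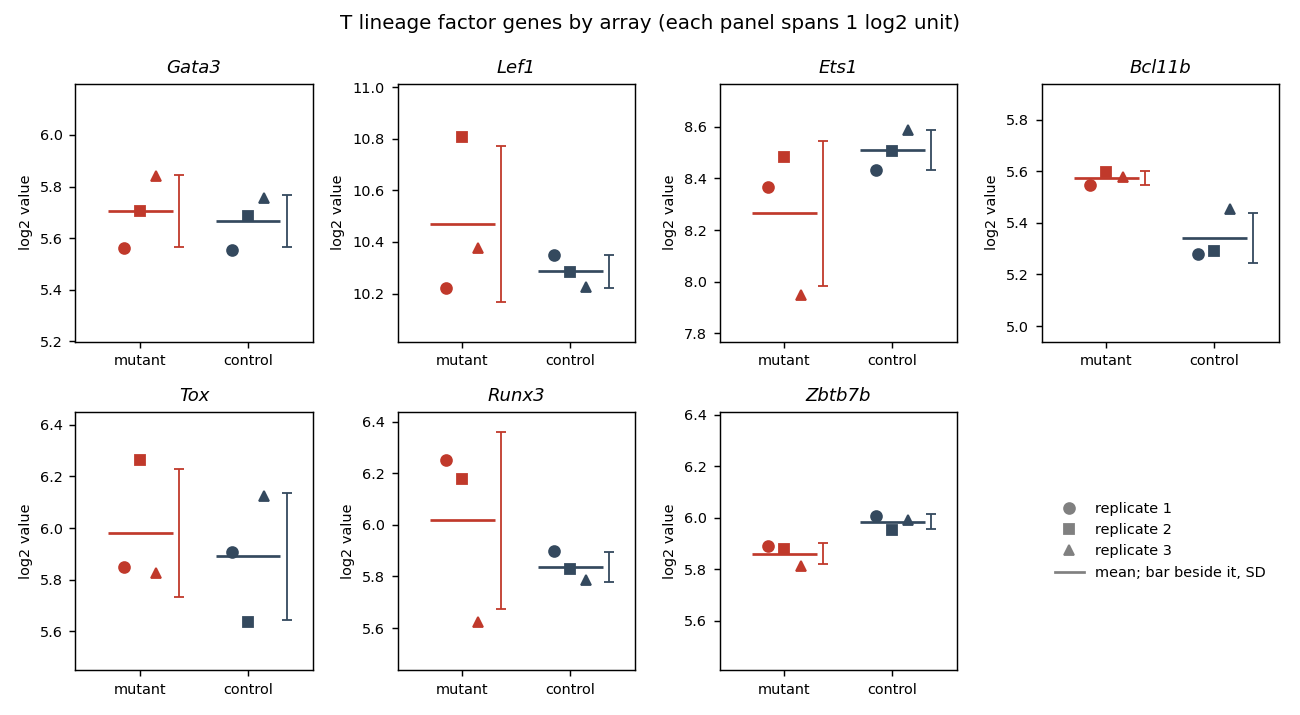
Log2 probe set values of the 7 factor genes on each array. Mutant arrays are left and control arrays right in each panel, horizontal lines are means, vertical bars are SD (n = 3), symbols give the replicate number, and each panel spans 1 log2 unit. The groups lie apart in Bcl11b and Zbtb7b and overlap in the other 5 genes.

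Gata3, a zinc finger factor that early T progenitors need, showed almost the same values in both groups. It was at 5.56, 5.71 and 5.84 in mutant replicates 1, 2 and 3, against 5.56, 5.69 and 5.75 in control replicates 1, 2 and 3. The groups overlapped over nearly their whole range, and the difference was 0.04 ± 0.12 (SE; 95% interval −0.25 to 0.33, adjusted p = 0.911 in limma). On the linear scale that interval runs from 0.841-fold to 1.26-fold. A dimmer probe set of Gata3, 17381533, gave means of 4.90 ± 0.12 in mutants and 4.83 ± 0.05 in controls (SD, n = 3 each). A probe set shared with 9230102O04Rik and 4930412O13Rik gave 4.05 ± 0.21 in mutants and 4.10 ± 0.05 in controls and stands for no single gene. The 3 probe sets thus differed by −0.04 to 0.07. The sign of the Gata3 difference turned when arrays were centred on their medians (−0.02). The mean of Gata3 over all arrays, 5.68, was at percentile 58.8 of the genes with a value. Without a detection call such a level cannot be separated from background. This also holds for Tox, Runx3 and Zbtb7b, at 5.94, 5.93 and 5.92 (percentiles 63.8, 63.7 and 63.6).

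Bcl11b, the gene of T lineage commitment, had the largest positive difference of the 7 in the values as deposited. Lef1 had a larger one with cyclic loess, with quantile normalization and without mutant replicate 1 or control replicate 1. Runx3 had a larger one without mutant replicate 3 or control replicate 1. Bcl11b was at 5.55, 5.60 and 5.58 in the mutant replicates, against 5.28, 5.29 and 5.45 in the control replicates. Every mutant value lay above every control value, and the mutants spread over 0.05, less than the 0.17 of the controls. The difference was 0.23 ± 0.11 (SE; 95% interval −0.02 to 0.49), which corresponds to 1.18-fold. It had an unadjusted p of 0.0687 and an adjusted p of 0.594 in limma, and an unadjusted p of 0.0153 without variance moderation. It ranked 1515 of 13308 by p. The difference was 0.20 to 0.29 on leaving out each array in turn, 0.18 when cyclic loess was applied and 0.20 when the arrays were quantile-normalized again. The group means, 5.57 ± 0.03 in mutants and 5.34 ± 0.10 in controls (SD, n = 3 each), were not far above the cut for testing, and without a detection call a level that low cannot be separated from background.

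**Figure D2:**
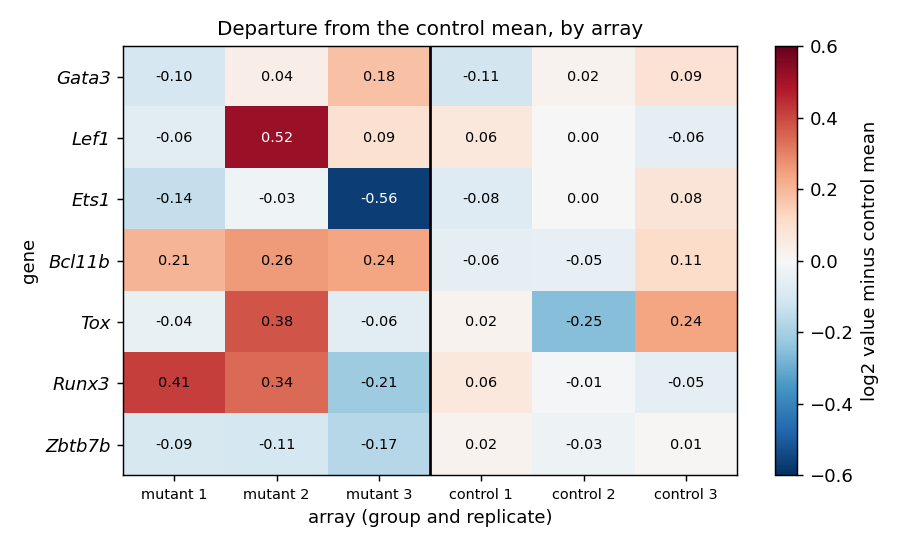
Log2 value minus the control mean for each factor gene (rows) on each array (columns), with mutant arrays left of the line and control arrays right. Bcl11b is positive and Zbtb7b negative on all mutant arrays, while departures of over 0.3 sit on 1 mutant array for Lef1, Tox and Ets1 and on 2 for Runx3. Runx3 also departs by −0.21 on mutant replicate 3, and Tox by −0.25 and 0.24 on control replicates 2 and 3.

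Lef1 encodes an HMG box factor that works with beta-catenin and shares its target sites with TCF-1. It was at 10.22, 10.81 and 10.38 in the mutant replicates, against 10.35, 10.28 and 10.23 in the control replicates. Mutant replicate 2 was the high array, and the other mutants lay close to the controls. The difference was 0.18 ± 0.16 (SE; 95% interval −0.19 to 0.56, adjusted p = 0.679 in limma). It fell to 0.01 without mutant replicate 2, the array that stood apart, and was 0.31 without mutant replicate 1. After cyclic loess, which removes trends with brightness between arrays, it was 0.37 with an adjusted p of 0.736.

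Ets1, the founding ETS factor, needed for normal T and natural killer cell development, had the largest negative difference in the values as deposited, though that of Zbtb7b was larger with cyclic loess, with quantile normalization and without mutant replicate 3. Ets1 was at 8.37, 8.48 and 7.95 in the mutant replicates, against 8.43, 8.51 and 8.59 in the control replicates. Mutant replicate 3 was low, and mutant replicate 2 lay within the control range. The difference was −0.24 ± 0.16 (SE; 95% interval −0.61 to 0.12, adjusted p = 0.61 in limma). It was −0.08 without mutant replicate 3, −0.07 when cyclic loess was applied and −0.08 when the arrays were quantile-normalized again. With array weights it was −0.54 and passed (adjusted p = 0.0116), where 22.2% of all tested genes passed. That setting gave mutant replicate 3 a weight of 5.20 and the other mutants 0.36 and 0.21, so its mutant estimate is close to the value of replicate 3. A probe set shared by Ets1 and Taok1 was at 7.61, 7.15 and 7.47 in the mutant replicates, against 7.51, 7.62 and 7.69 in the control replicates. There mutant replicate 2 was the lowest array, and mutant replicate 3 also lay below every control.

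Tox encodes an HMG box factor needed for CD4 T cells and for innate lymphoid progenitors. It was at 5.85, 6.27 and 5.83 in the mutant replicates, against 5.91, 5.64 and 6.13 in the control replicates. The groups overlapped, and both were widely spread, with SDs of 0.25 in mutants and 0.25 in controls. The difference was 0.09 ± 0.18 (SE; 95% interval −0.32 to 0.50, adjusted p = 0.848 in limma). It turned to −0.05 without mutant replicate 2 and to −0.04 without control replicate 2.

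Runx3 encodes a Runt domain factor that silences Cd4 and drives the CD8 fate. It was at 6.25, 6.18 and 5.62 in the mutant replicates, against 5.90, 5.83 and 5.78 in the control replicates. The mutants lay on both sides of the controls, with replicates 1 and 2 above and replicate 3 below. The SD was 0.34 in mutants and 0.06 in controls. The difference was 0.18 ± 0.18 (SE; 95% interval −0.23 to 0.59, adjusted p = 0.7 in limma). It was 0.38 without mutant replicate 3, 0.06 without mutant replicate 1, and 0.10 without mutant replicate 2, and it turned to −0.14 with array weights.

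Zbtb7b, whose product ThPOK sets the CD4 helper fate and is opposed by Runx factors, lay lower in mutants by a small step. It was at 5.89, 5.88 and 5.81 in the mutant replicates, against 6.01, 5.95 and 5.99 in the control replicates. The groups did not overlap, and the SDs, 0.04 in mutants and 0.03 in controls, were smaller than the step. The difference was −0.12 ± 0.11 (SE; 95% interval −0.37 to 0.12, adjusted p = 0.664 in limma), which corresponds to 0.918-fold. Its unadjusted p was 0.274 in limma, which moderates small variances upwards, and 0.0129 without moderation. The difference was −0.14 to −0.10 on leaving out each array in turn, −0.13 when cyclic loess was applied and −0.12 when the arrays were quantile-normalized again. It was larger in size with arrays centred on their medians (−0.19) and with array weights (−0.16). The level of Zbtb7b, like that of Gata3, cannot be separated from background without a detection call.

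**Figure D3:**
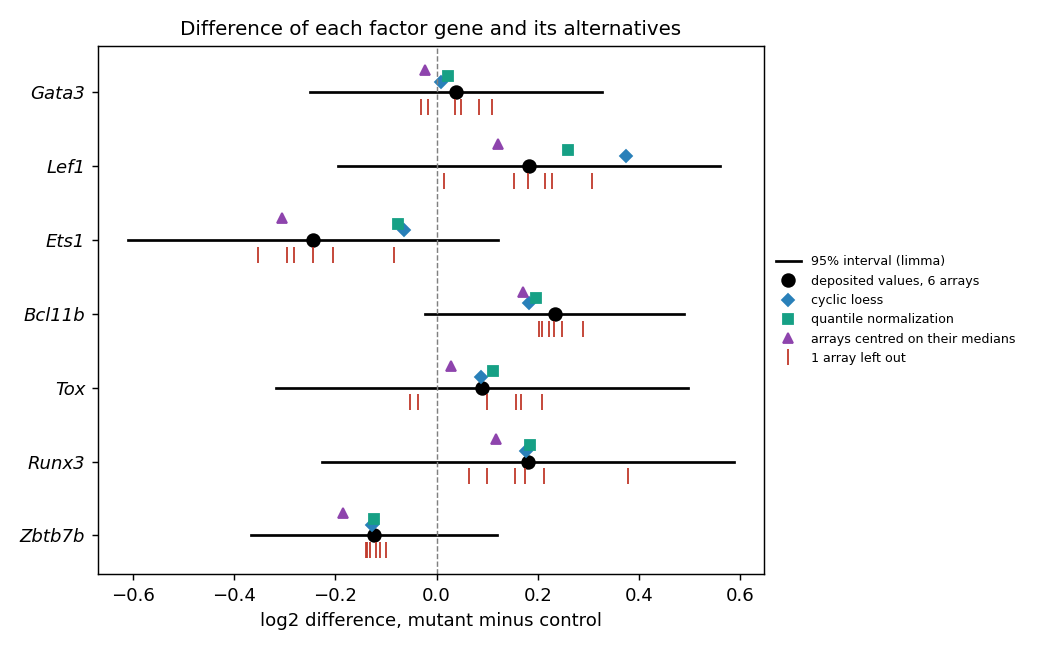
Log2 difference (mutant minus control) of each factor gene with its 95% interval from limma (black), the differences under 3 other normalizations (coloured symbols) and with 1 array left out (red ticks). All 7 intervals contain 0. The left-out arrays move Bcl11b and Zbtb7b little and move Lef1, Runx3, Ets1 and Tox by more. The sign of Gata3 and that of Tox turn with some arrays left out.

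Most tested genes varied more among mutants than among controls, and so did most of the factor genes. The mutant SD was larger for 72.4% of all tested genes and for 6 of the 7 factor genes, all but Bcl11b. It was over 3 times the control SD for 3 of the 7, Lef1, Runx3 and Ets1, against 27.9% of all tested genes. The median SD of the 7 genes was 0.25 in mutants and 0.08 in controls, and over all tested genes it was 0.20 in mutants and 0.12 in controls. Departures of over 0.3 from the control mean made up 5 of 21 mutant values: 3 on mutant replicate 2 (Lef1, Tox and Runx3), 1 on replicate 1 (Runx3) and 1 on replicate 3 (Ets1). That is 23.8% of the mutant values, against 28.1% over all tested genes.

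The arrays with low and high Eif2s3y were also compared on their own. With low Eif2s3y there was 1 mutant array and 1 control array, and with high Eif2s3y there were 2 of each. Bcl11b differed by 0.30 in the low set and 0.20 in the high set, Zbtb7b by −0.19 in the low and −0.09 in the high set, and Ets1 by −0.49 in the low and −0.12 in the high set. Lef1 differed by 0.03 in the low and 0.26 in the high set. The remaining genes had opposite signs: Runx3 differed by −0.28 in the low and 0.41 in the high set, Gata3 by 0.29 in the low and −0.09 in the high set, and Tox by −0.08 in the low and 0.18 in the high set. Differences between the sets were not tested. With the set as a block 0 of the 7 genes passed.

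Genes that belong to the T cell programme mostly had a lower mutant mean, and none passed. Of the 26 listed products of the T cell programme 19 were tested, 3 were too dim and 4 had no probe set with only their name. In limma 0 of the 19 passed, and 1 in each direction had an unadjusted p under 0.05, where 2.01% of all tested genes were higher and 6.02% lower at that p. The mutant mean was lower for 16 and higher for 3, with a median difference of −0.25, and over all tested genes it was lower for 57.5%. Cd27, a costimulatory receptor gene, was at 6.44, 6.68 and 6.54 in the mutant replicates, against 6.85, 6.83 and 6.90 in the control replicates (difference −0.31 ± 0.12, SE). Cd5, a gene of signal damping in T cells, was at 6.61, 6.46 and 6.43 in mutants, against 6.18, 6.18 and 6.29 in controls (0.28 ± 0.11). Cd3g, a subunit gene of the T cell receptor complex, was at 5.64, 4.89 and 5.14 in mutants, against 5.47, 5.52 and 6.35 in controls (−0.56 ± 0.28). For all 3 the adjusted p in limma was 0.594. Cd5 lay above and Cd27 below the controls on every mutant array, and Cd3g overlapped. Rag2 and Dntt also lay below the controls on every mutant array. Both are lymphoid progenitor markers too and are counted again in that list below. The groups did not overlap for 1 of the 19 above and 3 below, against 5.4% and 9.99% of all tested genes.

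Control replicate 3 was the high array for several of these genes. Cd3e was at 5.85, 5.62 and 5.70 in the mutant replicates, against 5.32, 5.99 and 6.78 in control replicates 1, 2 and 3. Cd3d was at 6.15, 4.49 and 5.63 in mutants, against 5.36, 5.57 and 6.42 in controls, and the CD8 beta chain gene Cd8b1 at 5.80, 5.13 and 5.31 in mutants, against 5.05, 5.27 and 6.23 in controls. Over the 12 of 13 T cell markers with a value, the mean was 5.18 to 5.39 on the mutant arrays, against 5.19, 5.30 and 5.70 on control replicates 1, 2 and 3. Of these 12 markers 3 were too dim to be tested. Without control replicate 3 the median of the T cell products was −0.06. Without that array Bcl11b differed by 0.29, and among the 7 factor genes Gata3, Bcl11b, Tox and Ets1 had their highest control value there. The part of T cell RNA in these results was not tested. In RNA from many cells, fewer cells of a type and less RNA per cell cannot be told apart.

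**Figure D4:**
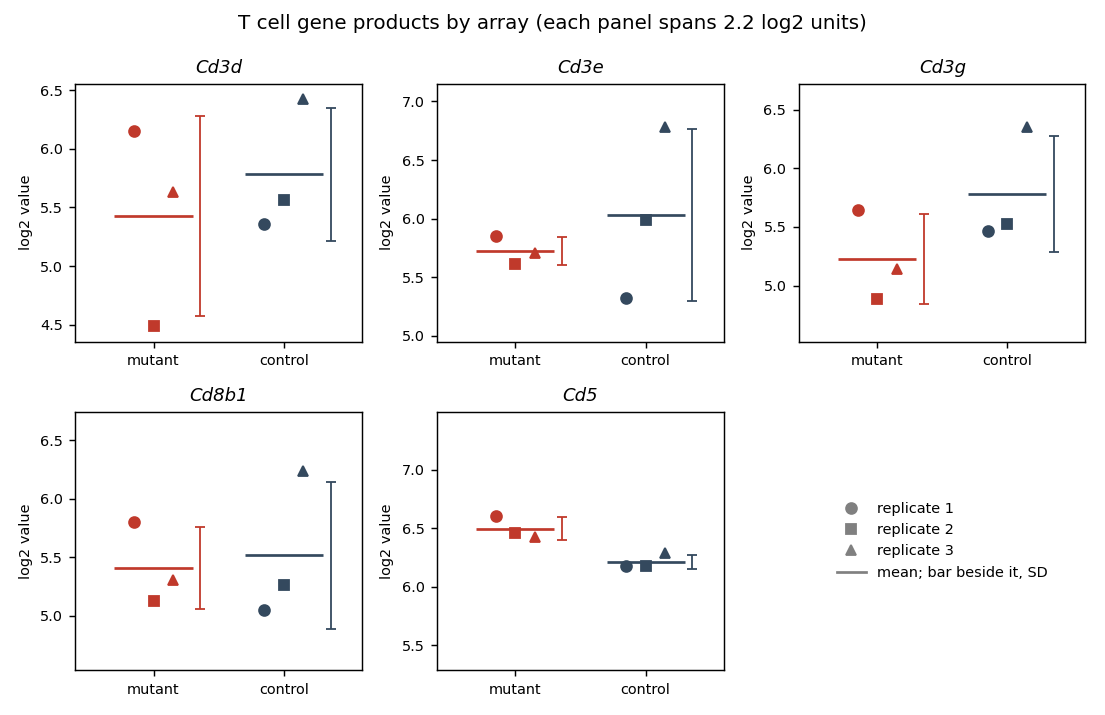
Log2 values of 5 T cell genes on each array, with mutant arrays left and control arrays right. Lines are means, vertical bars SD (n = 3), symbols the replicate number, and each panel spans 2.2 log2 units. Control replicate 3 (dark triangle) is the highest array for Cd3d, Cd3e, Cd3g and Cd8b1, while Cd5 is higher on all mutant arrays.

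The progenitor label was checked on its own markers. The 6 of 7 lymphoid progenitor markers with a value had means of 8.98 to 9.11 on the mutant arrays and 9.15 to 9.28 on the control arrays, and 6 of 6 had a lower mutant mean, as 57.5% of all tested genes did. Il7r, the gene of the sort marker CD127, was at 9.80, 9.72 and 9.78 in mutants, against 9.81, 10.35 and 10.16 in controls (adjusted p = 0.594 in limma). Kit, the gene of the sort marker cKit, averaged 7.13 in mutants and 7.15 in controls. Flt3 averaged 6.76 in mutants and 6.94 in controls. Ly6d, whose protein the sort excluded, was at 7.571, 7.301 and 7.001 in mutants, against 7.180, 8.141 and 8.252 in controls. Thy1, also excluded by its protein, was at 6.94, 6.83 and 6.54 in mutants, against 6.90, 6.75 and 7.31 in controls. RNA of both was thus listed at levels above the cut for testing on all 6 arrays, and the groups overlapped for both. The means of this progenitor list did not overlap between the groups, while those of the marker lists of other cells did. More markers were higher than lower in mutants for megakaryocytes (6 and 0), myeloid (7 and 2), plasmacytoid dendritic (4 and 1) and erythroid cells (3 and 1). More were lower than higher for T (9 and 3), B (6 and 2), natural killer (5 and 4), innate lymphoid (4 and 1) and bone stroma cells (4 and 2). Over all tested genes 42.5% were higher in mutants. For lymphoid cells they were 8.32 to 8.48 in mutants against 8.37 to 8.73 in controls (B cells), 5.10 to 5.39 in mutants against 5.19 to 5.57 in controls (natural killer cells) and 5.66 to 5.89 in mutants against 5.79 to 6.00 in controls (innate lymphoid cells). Myeloid markers averaged 9.04 to 9.91 in mutants against 8.76 to 9.80 in controls, and plasmacytoid dendritic cell markers 6.38 to 6.77 in mutants against 6.43 to 6.68 in controls. Erythroid markers averaged 6.52 to 6.95 in mutants against 6.57 to 6.91 in controls, and megakaryocyte markers 5.44 to 5.64 in mutants against 5.09 to 5.55 in controls. Bone stroma markers, checked because the labels also give stromal cells as the tissue, averaged 5.03 to 5.22 in mutants against 5.14 to 5.30 in controls. Some B cell and myeloid genes were bright on all 6 arrays. Averaged over the arrays, the B cell genes Igll1, Cd79a and Ebf1 were at 10.83, 10.45 and 9.89. Ms4a1 and Vpreb1, also B cell markers, were too dim to be tested, at 4.07 and 4.08. The myeloid genes S100a8 and Mpo were at 11.76 and 10.65, and Csf1r was at 6.34. The part of other cells in these values was not tested.

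Relatives of the factors in the same protein families did not pass in limma (0 of 16 tested of 17 listed). At an unadjusted p under 0.05 there were 0 higher and 2 lower, where the shares over all tested genes were 2.01% and 6.02%. The mutant mean was higher for 11 and lower for 5, with a median of 0.11, and over all tested genes it was higher for 42.5%. Fli1, an ETS relative of Ets1, was at 8.85, 8.52 and 8.69 in mutants, against 9.03, 9.17 and 9.22 in controls (−0.45 ± 0.13, SE). Tox4, a relative of Tox, was at 6.43, 6.11 and 6.32 in mutants, against 6.63, 6.71 and 6.72 in controls (−0.40 ± 0.12). Tcf7l1, a relative of Tcf7 and Lef1, was at 5.22, 5.28 and 5.34 in mutants, against 5.10, 5.08 and 5.11 in controls (0.19 ± 0.11). The adjusted p of these 3 were 0.594, 0.594 and 0.599 in limma. Their groups did not overlap, which held for 4 of the 16 relatives, 2 above and 2 below, and for 5.4% above and 9.99% below over all tested genes.

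Most partner protein genes had a lower mutant mean, where 57.5% of all tested genes did. Of 14 tested genes of 15 listed 0 passed in limma. At an unadjusted p under 0.05 there were 0 higher and 2 lower, where the shares over all tested genes were 2.01% and 6.02%. The mutant mean was lower for 10 of the 14, and the median difference was −0.14. That median was −0.0059 without mutant replicate 3, −0.03 with quantile normalization and 0.0031 with cyclic loess. Hdac1, a histone deacetylase gene, was at 9.24, 8.37 and 8.61 in mutants, against 9.41, 9.38 and 9.52 in controls (−0.70 ± 0.21, SE). Satb1, a chromatin organiser gene, was at 6.84, 6.33 and 6.26 in mutants, against 6.92, 7.02 and 6.94 in controls (−0.48 ± 0.17). Tcf12, the gene of the E protein HEB, differed by −0.26 ± 0.13. Each had an adjusted p of 0.594 in limma. The gene of the obligate partner of Runx factors, Cbfb, was at 8.76, 8.67 and 8.26 in mutants, against 8.35, 8.92 and 8.98 in controls, so that its groups overlapped.

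Among the 6 upstream regulators, all tested, the mutant mean was above the control mean for 3 and below it for 3 (median 0.02). Over all tested genes it was above for 42.5% and below for 57.5%. In limma 0 passed, with 0 higher and 1 lower at an unadjusted p under 0.05. Over all tested genes 2.01% were higher and 6.02% lower at that p. These shares also stand beside the counts of the progenitor and later lineage factors. Ikzf1, the Ikaros gene, differed by −0.45 ± 0.13 (SE), the Notch target gene Hes1 by 0.15 ± 0.11 and Notch1 by −0.15 ± 0.13, with adjusted p of 0.594, 0.624 and 0.671. All 11 progenitor factors, genes active before T lineage commitment, were tested, and 0 passed in limma (0 at an unadjusted p under 0.05 in either direction; median −0.03). Hoxa9 differed by 0.16 ± 0.13, Lyl1 by −0.16 ± 0.15 and Cebpa by 0.19 ± 0.19. Of the 11 later lineage factors 9 were tested and 0 passed in limma (1 higher and 0 lower at an unadjusted p under 0.05; median −0.05). Sox13, a gamma delta T cell factor gene, was at 6.73, 7.06 and 6.67 in mutants, against 6.46, 6.36 and 6.58 in controls (0.35 ± 0.14, adjusted p = 0.594). Sox4 differed by −0.21 ± 0.11 and Id3 by −0.25 ± 0.16, with adjusted p of 0.596 and 0.609.

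**Figure D5:**
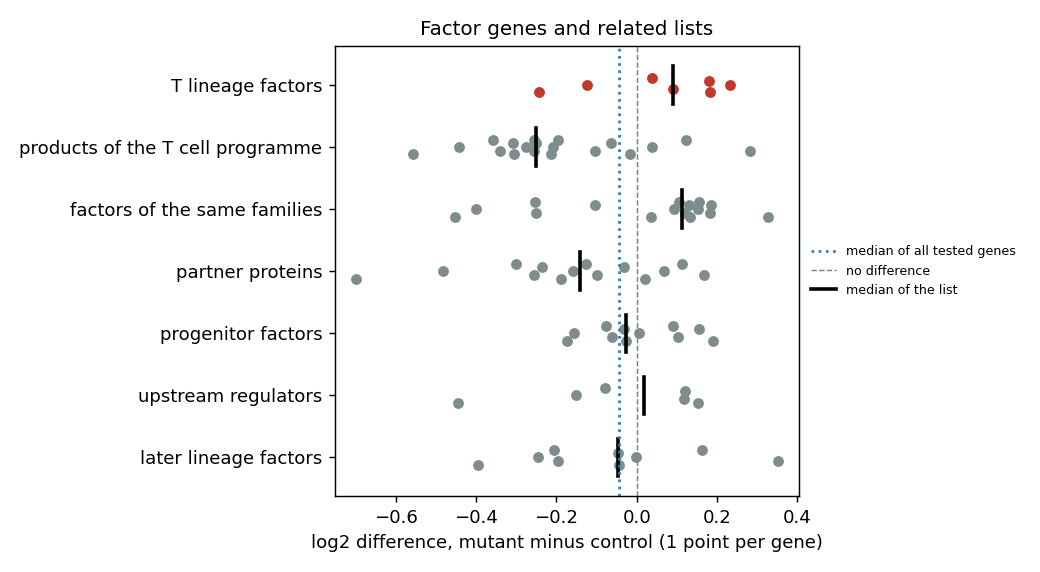
Log2 difference (mutant minus control) of each tested gene, 1 point per gene, for the T lineage factors (red) and the 6 related lists (grey). Black lines are list medians, the dotted line is the median of all tested genes (−0.04) and the dashed line is 0. The factors have a median of 0.09 and the products of the T cell programme one of −0.25.

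The genes whose profile over the 6 arrays was most like that of each factor were found by the root mean square difference after each gene's own mean was removed, among 11954 genes. For Bcl11b they were Scube1 (0.0168) and Nkd2 (0.0249), for Gata3 Ccr7 (0.0281) and Tns2 (0.0301), and for Zbtb7b Sertad2 (0.0177) and Lsm14a (0.0202). For Lef1 they were Olfr75-ps1 (0.0177) and Wnk2 (0.0205), and for Tox Ppm1j (0.0403) and Fam163b (0.0412). For Runx3 they were Agap1 (0.0395) and Pex14 (0.0506), and for Ets1 Dnajc5 (0.0463) and Srrt (0.049). None of these was another of the factors. Between the factors themselves this difference was 0.126 at the least, for Gata3 and Bcl11b, and 0.297 at the most, for Gata3 and Runx3. The root mean square spread of each gene around its own mean was 0.101 for Gata3, 0.130 for Bcl11b and 0.220 for Runx3. The 0.126 was thus about as large as the spreads of that pair. Genes that vary little come out close by this measure without sharing a pattern. With 6 arrays and this many genes close matches arise easily, so these are descriptions of the profiles.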

How the data were processed

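Gene expression was measured in Ly6D- common lymphoid progenitors of 3 mutant and 3 control samples, grouped and numbered by their titles. The authors deposited log2 values per probe set. Per the submitters' processing notes RMA was used; a version or build is not given in the sources used here. RMA normally makes the arrays' distributions alike, but the deposited arrays were not fully so: the interquartile range was 2.34 on mutant replicate 2, 2.42 on mutant replicate 3 and 2.59 to 2.61 on the others. No detection call or depth comes with it, so low values cannot be separated from background. The precision is limited by having 3 arrays in each group.

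The table held 41345 probe sets, of which 23521 carried 1 symbol in the platform annotation, 1814 several genes and 16010 no gene listed. Each of 22180 genes was read from its probe set with 1 symbol and the highest mean. The lowest 40% by mean were left out, which left 13308. The mutant and control arrays were compared 2-sided with limma 3.58.1 in R 4.3.3 (lmFit, then eBayes), with Benjamini-Hochberg adjustment over all tested genes and a threshold of 0.05. Intervals are 95% from that fit, and errors of differences are its standard errors. With 3 against 3 an exact permutation test of 1 gene cannot go below p = 0.1, so none is given. The fit was tested on simulated data with the same spread in both groups and shifts far larger than the differences of the factor genes. That test therefore does not measure how well differences as small as these would be found. Figures were drawn with matplotlib 3.10.9.

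The members and lists were chosen with earlier results of these data known. Named beside the 7 factor genes are the 3 tested genes of each list with the lowest p, the 2 genes closest in profile to each factor (predicted, microRNA and small nucleolar RNA genes passed over), and sort, T cell receptor and sex-linked genes as checks. Cd8b1 and Cbfb were added after their values were seen. The alternatives were other filters on dim genes, other probe set rules, variance settings, array weights, 3 normalizations, the replicate number or the Eif2s3y set as a block, other thresholds, and leaving out each array.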

Additional observations from a re-analysis of the deposited data

How the results depend on the processing

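Of the 7 factor genes 0 passed under any alternative other than array weights, under which 1 passed, Ets1 (−0.54, adjusted p = 0.0116). The count was also 0 at adjusted p thresholds of 0.1 and 0.2 and when every probe set was tested alone. Array weights turned Tox to −0.0563 and Runx3 to −0.14, and centring on array medians turned Gata3 to −0.0235. Array weights also called 3 products of the T cell programme, 3 family relatives, 7 partner proteins, 2 upstream regulators and 1 later lineage factor, where 2960 of all tested genes passed, and these counts were 0 in the other alternatives run for the lists (not the Eif2s3y set block, the other thresholds or single probe sets). On leaving out each array the difference ran from −0.0303 to 0.109 for Gata3, −0.0526 to 0.208 for Tox, 0.01 to 0.31 for Lef1, 0.06 to 0.38 for Runx3, −0.35 to −0.08 for Ets1, 0.20 to 0.29 for Bcl11b and −0.14 to −0.10 for Zbtb7b. Gata3 changed sign without mutant replicate 3 or control replicate 1 (−0.016 in the second case), and so did Tox without mutant replicate 2 or control replicate 2 (−0.0373 in the second case). The adjusted p over the alternatives ran from 0.0816 to 0.885 for Bcl11b, 0.15 to 0.885 for Zbtb7b and 0.0116 to 0.929 for Ets1. Over all genes, 6 passed without mutant replicate 1 and 1 passed without mutant replicate 2. With the 60% filter Gata3 and Bcl11b were not tested. Medians that moved by more than their spread were those of the T cell products (−0.11 with quantile normalization, −0.12 with cyclic loess, −0.06 to −0.30 without 1 array), the family relatives (−0.01 with array weights, 0.05 with centring, 0.03 to 0.14 without 1 array), the progenitor factors (0.11 with quantile normalization, 0.12 with cyclic loess), the partners (−0.34) and upstream regulators (−0.12) with array weights, and the later lineage factors (−0.20 with the 60% filter and −0.20 without control replicate 2). Medians near 0, those of the progenitor factors and upstream regulators, also changed sign under several settings. The cause of these changes was not tested.

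Whether the replicate numbers pair the samples could not be told from these arrays. Deviations from the group means of same-numbered arrays correlated at 0.13, 0.20 and −0.13 (across genes, which are not independent). Those of differently numbered arrays correlated at −0.23 to 0.20. With 3 arrays in each group, whose deviations sum to 0, such correlations cannot decide the question. With the replicate block the differences are the same by construction, 0.23 for Bcl11b and −0.12 for Zbtb7b, 0 of the 7 genes passed, and no call changed.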
